A study of Mus musculus with 6 samples.

Results

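The 8 genes described here, Lrp1b, Wwox, Fhit, Ctnna3, Exoc4, Immp2l, Naaladl2 and Dlg2, are very long mouse genes whose human counterparts lie at common fragile sites. They were taken from a list of gene names and by no rule on a measured value, though earlier results of these data were known. They make up 8 of the 21627 protein-coding genes placed on the windows. Each gene was followed from end to end, with 500 kb of DNA on each side, through 1812 of the 237602 windows of the series, of which 1057 had their midpoint inside a gene. The windows had a median span of 10041 bp.

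Common fragile sites are stretches of chromosome that show gaps and breaks on metaphase spreads after mild replication stress, for instance after a low dose of the polymerase inhibitor aphidicolin. Many coincide with very long genes, few origins are thought to fire inside them, and they often finish replication late. Which of them break differs between cell types, and the breaks can leave deletions within the gene. Several of these genes are lost in tumours, among them Fhit and Wwox.

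The data were replication timing profiles of mouse myeloid lines that were made to grow without limit with HoxB8 and selected in GM-CSF, a cytokine for myeloid growth. By the labels, 3 samples were wild type (WT) and 3 were Recql4 -/- Klhdc3 -/-, lacking a RecQ helicase that acts at the start of replication and a substrate receptor of a CUL2 ubiquitin ligase. Per the labels, both groups divided in 15 to 18 h with more than 25% of cells in S phase, and DNA of unsorted proliferating cultures was sequenced whole. The labels used here do not say whether samples of a genotype were separate clones or cultures. DNA depth carries no expression marker against which the cell type could be checked.

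The 6 columns of values carried no sample names. They are called profiles A to F, none is known to be a replicate of another, and no comparison of WT with Recql4 -/- Klhdc3 -/- was made. All values are therefore given per profile, or as the median and the range over profiles, with no test. Chromosome 12, which holds Immp2l, had values in A, B, C and F only. A timing score is the smoothed deposited value, scaled in each profile to an SD of 1 around a mean near 0 on the autosomes, and a higher score stands for earlier replication. The raw level is the unsmoothed DNA copy level, with autosomal medians between 1.96 and 1.98. Early DNA has a high raw level in a growing culture because it is copied first, but a gain or loss of DNA moves the raw level in the same way, and the score with it. Single windows scattered around the smoothed line with an SD between 0.121 and 0.127 in raw level, so raw levels are given only as means over many windows. The sequencing aimed at 30-fold coverage with reads of 150 bp, and the depth that each library reached is unknown here, so no counting interval was computed.

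Promoter sequences of 300 bases were held by RefSeq (build GRCm38.p6) for 10 start sites of 5 of the genes, namely Ctnna3, Dlg2, Exoc4, Fhit and Immp2l. Each runs from 250 bases before the start site to 50 bases after it. Those below were chosen to mark the early end of Ctnna3, a late place inside Dlg2 and the late end of Fhit in the timing profiles. They are written 5′ to 3′ on the strand of the gene, and capitals mark each CG, the letters searched, which read the same on both strands and cannot overlap one another.
Ctnna3 outermost start: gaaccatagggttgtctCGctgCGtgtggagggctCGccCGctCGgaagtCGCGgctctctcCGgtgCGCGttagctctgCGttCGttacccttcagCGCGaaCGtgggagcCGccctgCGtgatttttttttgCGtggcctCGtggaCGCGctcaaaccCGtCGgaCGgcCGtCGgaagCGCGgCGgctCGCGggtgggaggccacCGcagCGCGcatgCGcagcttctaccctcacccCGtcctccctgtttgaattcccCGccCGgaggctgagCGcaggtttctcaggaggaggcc
Dlg2 inner start: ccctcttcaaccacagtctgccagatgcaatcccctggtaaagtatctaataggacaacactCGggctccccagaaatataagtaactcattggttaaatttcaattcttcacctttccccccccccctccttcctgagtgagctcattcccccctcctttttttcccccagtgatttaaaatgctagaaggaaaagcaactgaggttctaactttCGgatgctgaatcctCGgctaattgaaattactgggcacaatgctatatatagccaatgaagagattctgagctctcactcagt
Fhit outermost start: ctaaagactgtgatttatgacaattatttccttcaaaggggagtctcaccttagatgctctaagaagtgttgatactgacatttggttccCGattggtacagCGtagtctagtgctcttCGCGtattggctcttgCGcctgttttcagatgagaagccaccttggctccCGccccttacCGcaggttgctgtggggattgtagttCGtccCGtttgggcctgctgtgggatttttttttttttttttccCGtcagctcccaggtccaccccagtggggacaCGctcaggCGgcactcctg

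The Ctnna3 sequence, at chr10:63429848-63430147 on the plus strand, held 39 CG, and 4.45% of the 32851 promoters in the table held at least as many. The Dlg2 sequence, at chr7:91090536-91090835 on the plus strand and 615 kb inside the gene, held 3 CG, and 76.7% of promoters held at least as many. The Fhit sequence, at chr14:11161986-11162285 on the minus strand, held 12 CG, and 39.6% of promoters held at least as many. The median over the table was 7 CG, and 94.6% of promoters held at least 1. The timing score at these start sites had a median of 0.11 at Ctnna3, -1.0 at Dlg2 and -1.48 at Fhit over the 6 profiles. Of the 3, the richest in CG lay in the earliest DNA and the Dlg2 start, the poorest, did not lie in the latest. Because the 3 were chosen by their place in the timing profiles, no relation of CG to timing can be read from them.

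Replication of the gene bodies ran from far later than the autosomal mean to close to it. Naaladl2, Fhit and Lrp1b were the latest by median body score, at -1.41, -1.29 and -1.12. Ctnna3 and Dlg2 followed at -0.89 and -0.83, and Immp2l stood at -0.28 over its 4 profiles. The Immp2l median, and with it its place in any order, rested on single profiles: it was -0.042 without A or without B, and -0.51 without C or without F. Exoc4 and Wwox lay near the mean, at -0.021 and 0.014. Neighbours in this order had overlapping ranges over profiles, except that Lrp1b lay below Ctnna3, and Dlg2 below Immp2l, in every profile valued for both.

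The body score was below 0 in each valued profile in 5 of the 8 genes (Lrp1b, Fhit, Ctnna3, Naaladl2 and Dlg2). The same held for 14.9% of all autosomal protein-coding genes with a value, and for 58.3% of the 206 such genes of at least 500 kb. The share among the fragile-site genes was thus close to that among genes of this length, and it is no result about them. The raw level, averaged over the body, was below the autosomal median of each profile in the same 5 genes, beside 56.8% of the 206 long genes. Among those 206, counted from the latest, Naaladl2 was number 18 and Fhit 27, followed by Lrp1b at 42, Ctnna3 at 58, Dlg2 at 66, Immp2l at 116, Exoc4 at 137 and Wwox at 143.

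**Figure D1:**
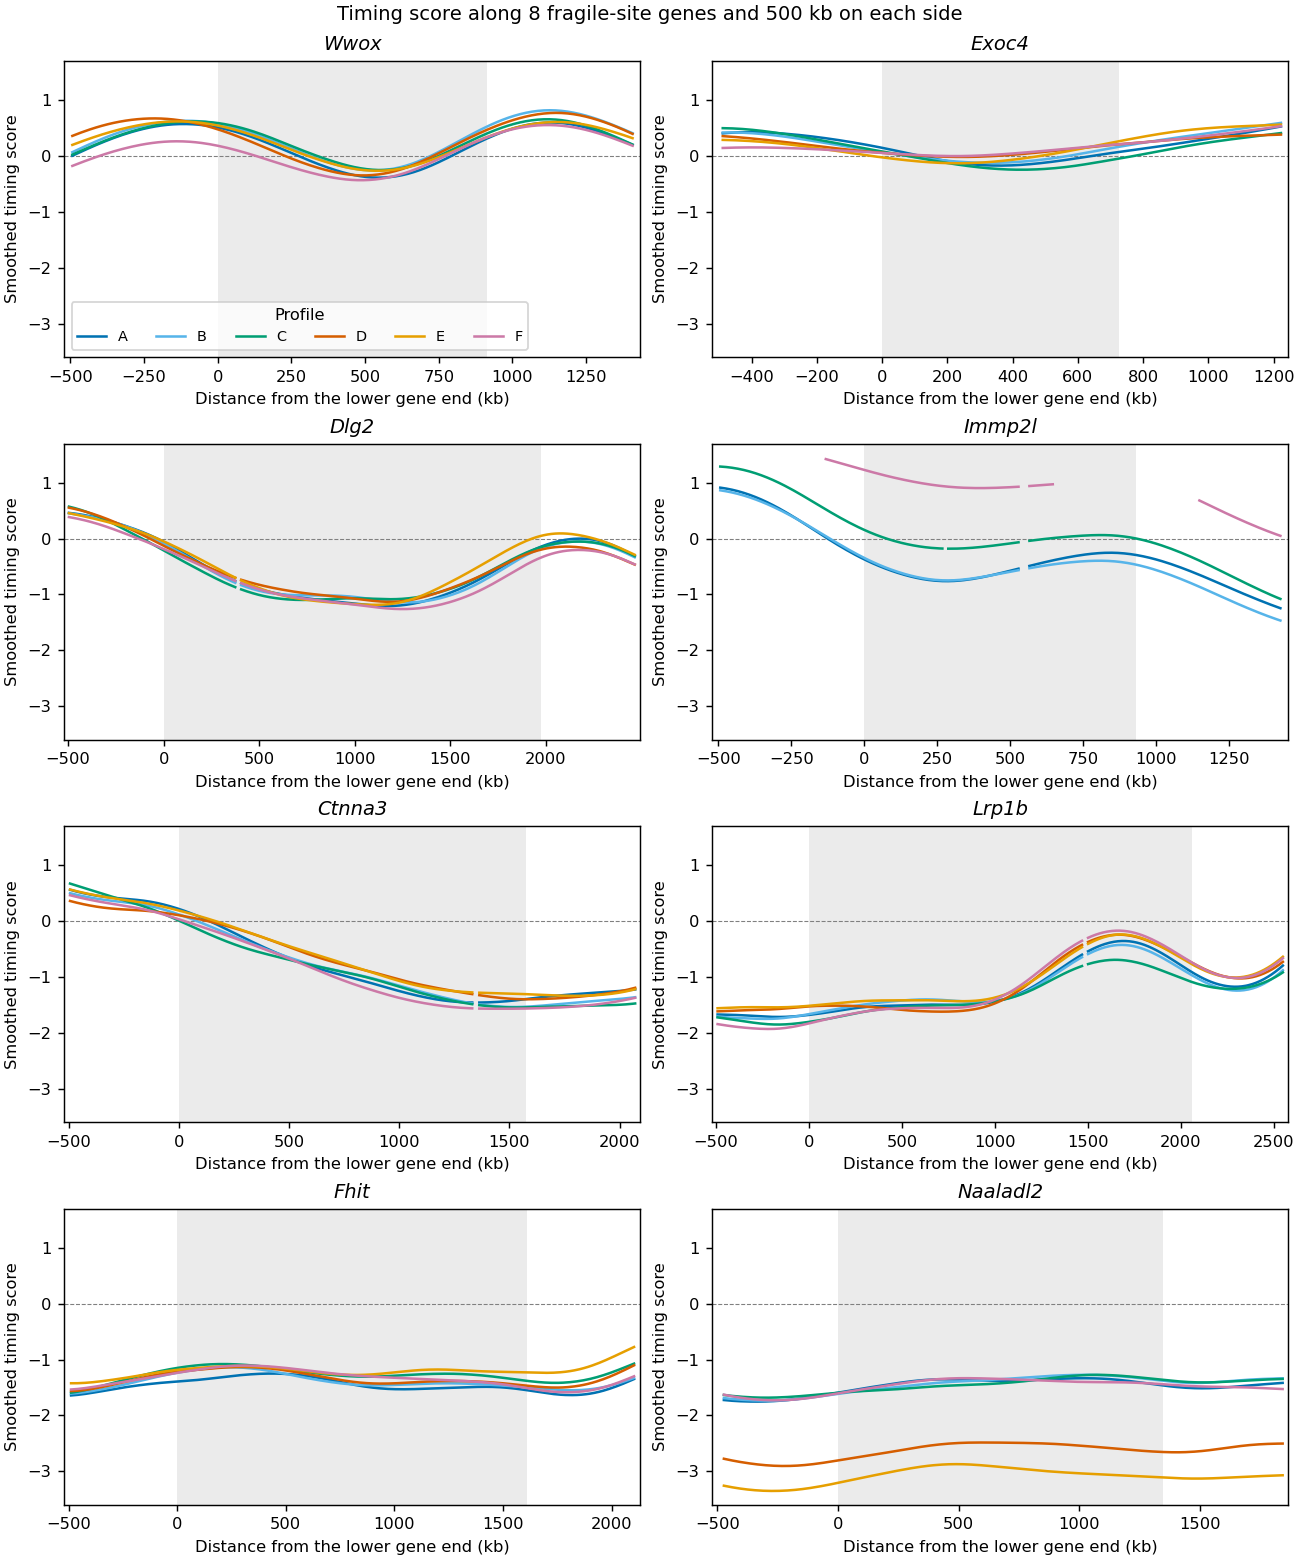
Smoothed timing score (vertical axis, score units) against distance from the lower gene end (horizontal axis, kb) for each of the 8 genes with 500 kb on each side, one line per profile A to F. Wwox and Dlg2 form valleys, Ctnna3 falls from end to end, Lrp1b rises in its upper part, and Naaladl2 lies lower in D and E than in the other 4 profiles.

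Set against the DNA beside them, the genes fell into valleys, slopes and flat stretches. A body later than both of its flanks in each profile was found in Wwox, Exoc4 and Dlg2, 3 of the 7 genes with a value. Among long genes the same was true of 33 of 204, or 16.2%. The latest of 10 equal parts of the body lay inside the gene, rather than in its first or last part, in Wwox, Exoc4, Immp2l (read in A, B and C only) and Dlg2, 4 of 8 genes, beside 21.6% of 208 long genes. Immp2l had no complete comparison with its flanks, since its lower flank was too sparsely valued in profile F. These shares were not tested. With flanks of 1 Mb only Dlg2 was later than both, and with a minimum of at least 0.25 score units only Wwox and Dlg2 kept an inner one.

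Wwox, which encodes a WW-domain oxidoreductase and tumour suppressor, formed a valley between earlier flanks. The gene lies on chromosome 8 from 114439635 to 115352712 and spans 90 windows. Its body scores were -0.034, 0.088, 0.086, -0.015, 0.043 and -0.15 in profiles A to F. Scores of either sign thus occurred, and the body as a whole sat at the autosomal mean. The lower flank had a median score of 0.45 (0.14 to 0.58) and the upper flank 0.52 (0.45 to 0.69), so that the body was later than both in all 6 profiles. Body minus the mean of the flanks had a median of -0.47 (-0.63 to -0.39) with flanks of 500 kb, and of -0.076 with flanks of 1 Mb.

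Inside Wwox the score fell from a median of 0.47 in the first part to -0.30 in part 6 and rose to 0.27 in the last. The latest window lay between 484 and 554 kb from the lower end in the 6 profiles, a span of few windows in a gene of 913 kb. The unsmoothed level had its low point slightly further along, at a median of 1.81 in part 7 (1.79 to 1.86), against 2.06 in the first part and 2.04 in the last. In every profile the lowest part of the raw level stood below both ends. Nudt7, Vat1l and Clec3a lie in the lower flank, and Maf, a leucine-zipper transcription factor of macrophages among other cells, in the upper one.

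Dlg2 encodes PSD-93, a scaffold of the postsynaptic density, and formed the deepest valley. The gene lies on chromosome 7 from 90476188 to 92449246, over 188 windows. Body scores were -0.84, -0.83, -0.84, -0.78, -0.76 and -0.92 in A to F, a narrow range. The lower flank stood at a median of 0.24 (0.14 to 0.26) and the upper at -0.12 (-0.28 to -0.020). These flanks do not overlap the body in any profile.

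The body of Dlg2 minus the mean of its flanks was -0.92, -0.89, -0.89, -0.80, -0.87 and -0.85 in A to F. By its median, -0.88, Dlg2 ranked 4 of 204 long genes counted from the most negative difference, while Wwox ranked 31. The score fell from -0.29 in the first part to -1.14 in part 6 and came back to -0.32 in the last. Unlike that of Wwox, the floor was broad, and the latest window moved between 729 and 1270 kb from the lower end among profiles. The raw level was 1.93 in the first part, 1.78 in part 7 and 1.96 in the last, so the low stretch was also there without smoothing. Both flanks hold several genes, including Eed, a Polycomb subunit, and Picalm, a clathrin adaptor, in the lower one, and Pcf11, a factor of transcript cleavage, in the upper one.

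Exoc4 encodes a subunit of the exocyst, the complex that tethers secretory vesicles to the plasma membrane. It is the shortest of the genes, at 725 kb on chromosome 6 from 33249090 to 33973979, with 70 windows. Its body scores were -0.060, -0.030, -0.14, 0.056, -0.013 and 0.069 in A to F, on either side of 0. Both flanks were earlier in each profile, at medians of 0.25 (0.12 to 0.34) and 0.34 (0.20 to 0.46). The body minus the lower flank was as small as -0.055 in profile F.

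The valley of Exoc4 was shallow, with a median difference of 0.26 between its earliest and latest part, compared with 0.76 in Wwox. On the lower side it was shallower still, as the first part stood above the latest by a median of 0.12. That step was 0.27, 0.16 and 0.29 in A, B and C, but only 0.056, 0.079 and 0.042 in D, E and F. The latest part was number 4, 5 or 6 in all profiles, with a median score of -0.12. Unsmoothed levels were 2.04 in the first part and 2.09 in the last, and 1.91 to 1.98 in the 8 parts between them. Chchd3, a component of the mitochondrial inner-membrane organising system, overlaps the lower flank, and the aldo-keto reductase genes Akr1b3, Akr1b7, Akr1b8 and Akr1b10 lie in the upper one.

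Immp2l encodes a subunit of the mitochondrial inner membrane peptidase. It lies on chromosome 12 from 41024061 to 41955588, and 87 windows fell in it. The body scores were -0.51 in A, -0.55 in B, -0.042 in C and 0.99 in F. Profile F thus stood apart from the other 3, and C lay between them. The median raw level of chromosome 12 as a whole was 1.97, 1.98, 2.02 and 2.20 in the same profiles, and the median score of the chromosome 0.064, 0.044, 0.40 and 1.5. The scores stood in the same order at Immp2l as over the chromosome. Timing and DNA copy number cannot be told apart in these shifts.

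Relative to the median score of chromosome 12, the body of Immp2l stood at -0.58, -0.60, -0.45 and -0.51 in A, B, C and F. On this scale the 4 profiles lay between -0.60 and -0.45, and the gene was later than its chromosome in each of them. The value of F covers only 59 of the 87 windows. Its closeness to A, B and C is therefore not a comparison over the same DNA. In A, B and C the body minus the lower flank, which holds Dock4, was between -0.91 and -0.88, and the body minus the upper flank between 0.23 and 0.46. The body therefore lay between an early and a late flank. It did not itself descend, but held a dip. The last part minus the first was 0.21 in A, 0.024 in B and -0.026 in C. The dip was in part 4 in A, B and C, where the latest window lay 278 to 298 kb from the lower end. In part 3 the raw level was 1.74 in A, 1.75 in B, 1.92 in C and 2.11 in F. Profile F had no values over parts 8 to 10, so its shape was not read, and the inner minimum of Immp2l rests on A, B and C. Lrrn3, a leucine-rich repeat membrane protein gene, lies inside Immp2l.

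**Figure D2:**
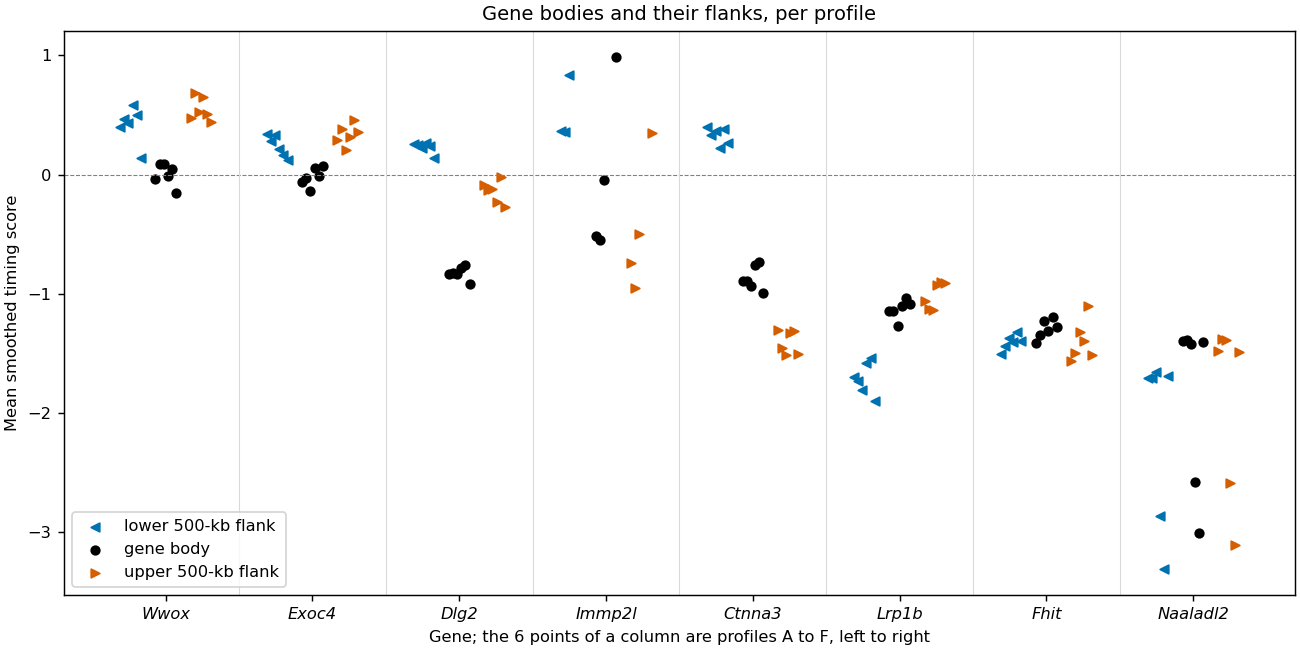
Mean smoothed timing score (vertical axis) of the lower 500-kb flank, the body and the upper 500-kb flank of each gene, with a point per valued profile in the order A to F. Bodies of Wwox, Exoc4 and Dlg2 lie below both flanks, Ctnna3 lies between an early and a late flank, and flanks and bodies of Fhit and Naaladl2 are late together.

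Ctnna3, the gene of alpha-T-catenin, a protein of cell junctions in heart and other tissues, was a slope. It lies on chromosome 10 from 63430098 to 65003667, with 149 windows. Body scores were -0.90, -0.89, -0.94, -0.76, -0.73 and -0.99 in A to F. These means hide a steady descent, from a median of 0.022 in the first part (-0.13 to 0.10) to -1.48 in the last (-1.57 to -1.30). The fall came to a median of -1.03 score units per Mb. The raw level fell along with it, from a median of 1.98 in the first part to 1.74 in the last.

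Ctnna3 lay between an early and a late flank. The lower flank, with 11 genes that include the deacetylase gene Sirt1 and the nuclease-helicase gene Dna2, had a median score of 0.35 (0.22 to 0.40). The upper flank, with no protein-coding gene, stood at -1.39 (-1.52 to -1.30). In all 6 profiles the body lay between them. The start site shown above is at the early end, so the gene is read from early into late DNA. A pair of further start sites lie 27.4 and 391 kb inside the gene, where the median score was 0.086 and -0.48. Lrrtm3, a synaptic adhesion gene, lies within Ctnna3.

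Lrp1b, which encodes a receptor of the low-density lipoprotein receptor family, combined a flat late part with a rise. It is the longest of the genes, at 2058 kb on chromosome 2 from 40595290 to 42653598, with 195 windows. Body scores were -1.15, -1.14, -1.27, -1.10, -1.04 and -1.09 in A to F, all far below 0. The body was earlier than the lower flank, which stood at -1.71 (-1.90 to -1.54), and later than the upper flank, at -0.99 (-1.14 to -0.90), in every profile. In B the body minus the upper flank was only -0.012. No other protein-coding gene lies within Lrp1b or its 500-kb flanks.

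Over parts 1 to 5 of Lrp1b the median score stayed between -1.62 and -1.47. It then rose to -0.34 in part 9 and was -0.63 in the last part. The earliest window of the gene lay 1652 to 1694 kb from the lower end in the 6 profiles, so a local early peak sits inside the gene at a nearly constant place. The height of that peak varied more than its place, from -0.69 in C to -0.17 in F. The raw level moved likewise, from 1.72 in part 3 to 1.95 in part 9. In part 8 the raw level was between 1.90 and 1.95, so the rise was present in each profile without smoothing. The difference from the flanks depended on their length, with a median of 0.22 for flanks of 500 kb and -0.13 for flanks of 1 Mb.

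Fhit, which encodes a hydrolase of the histidine triad family that cleaves diadenosine polyphosphates, was late throughout. It lies on chromosome 14 from 9550092 to 11162061, with 153 windows. Body scores were -1.41, -1.35, -1.23, -1.31, -1.20 and -1.27 in A to F. The lower flank, at -1.40 (-1.51 to -1.32), was later than the body in all 6 profiles. The upper flank, at -1.45 (-1.56 to -1.10), was later in 5 of 6, and in E the body minus this flank was -0.096. With flanks of 1 Mb the median of the body minus the mean flank changed sign, from 0.12 to -0.076.

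The score of Fhit differed by a median of 0.29 between its earliest and latest part, with the earliest window 211 to 429 kb from the lower end. The latest window was the outermost one at the upper end in A, B, C, D and F, and lay 821 kb from the lower end in E. The gene starts at that upper end, on the minus strand, so it is read from the latest part of the body towards the lower end. The raw level was between 1.74 and 1.82 by median in all 10 parts. Ptprg, a receptor tyrosine phosphatase gene, lies in the upper flank.

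Naaladl2, related to the glutamate carboxypeptidase genes, was the latest of the genes and the one whose profiles differed most. It lies on chromosome 3 from 23798103 to 25144149, with 125 windows. The body score was -1.40, -1.39, -1.42, -2.58, -3.00 and -1.41 in A to F. Profiles D and E thus lay more than 1 SD of a profile below the other 4, which agreed closely. The raw level of the body was 1.77, 1.80, 1.82, 1.61, 1.51 and 1.76 in the same order, against chromosome 3 medians between 1.86 in E and 1.94 in C. Whether D and E replicated this DNA later or held fewer copies of it cannot be told apart from these values.

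With that offset removed, the 6 profiles of Naaladl2 lay close together, though the place of their earliest DNA differed. Its body minus the mean of its flanks was 0.20, 0.16, 0.10, 0.15, 0.21 and 0.18 in A to F, so D and E did not stand apart on this measure. The root mean square difference between pairs of profiles over the gene and flanks had a median of 1.16 and came down to 0.059 once each profile's own mean was removed. Inside the gene the earliest and latest parts differed by a median of 0.27, with the latest window at the lower end in all 6 profiles. The earliest window lay 1022 to 1074 kb from the lower end in A, B and C, and 490 to 592 kb in D, E and F. Between pairs of profiles the Pearson correlation was as low as 0.60. Nlgn1, a synaptic adhesion gene, lies in the upper flank.

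**Figure D3:**
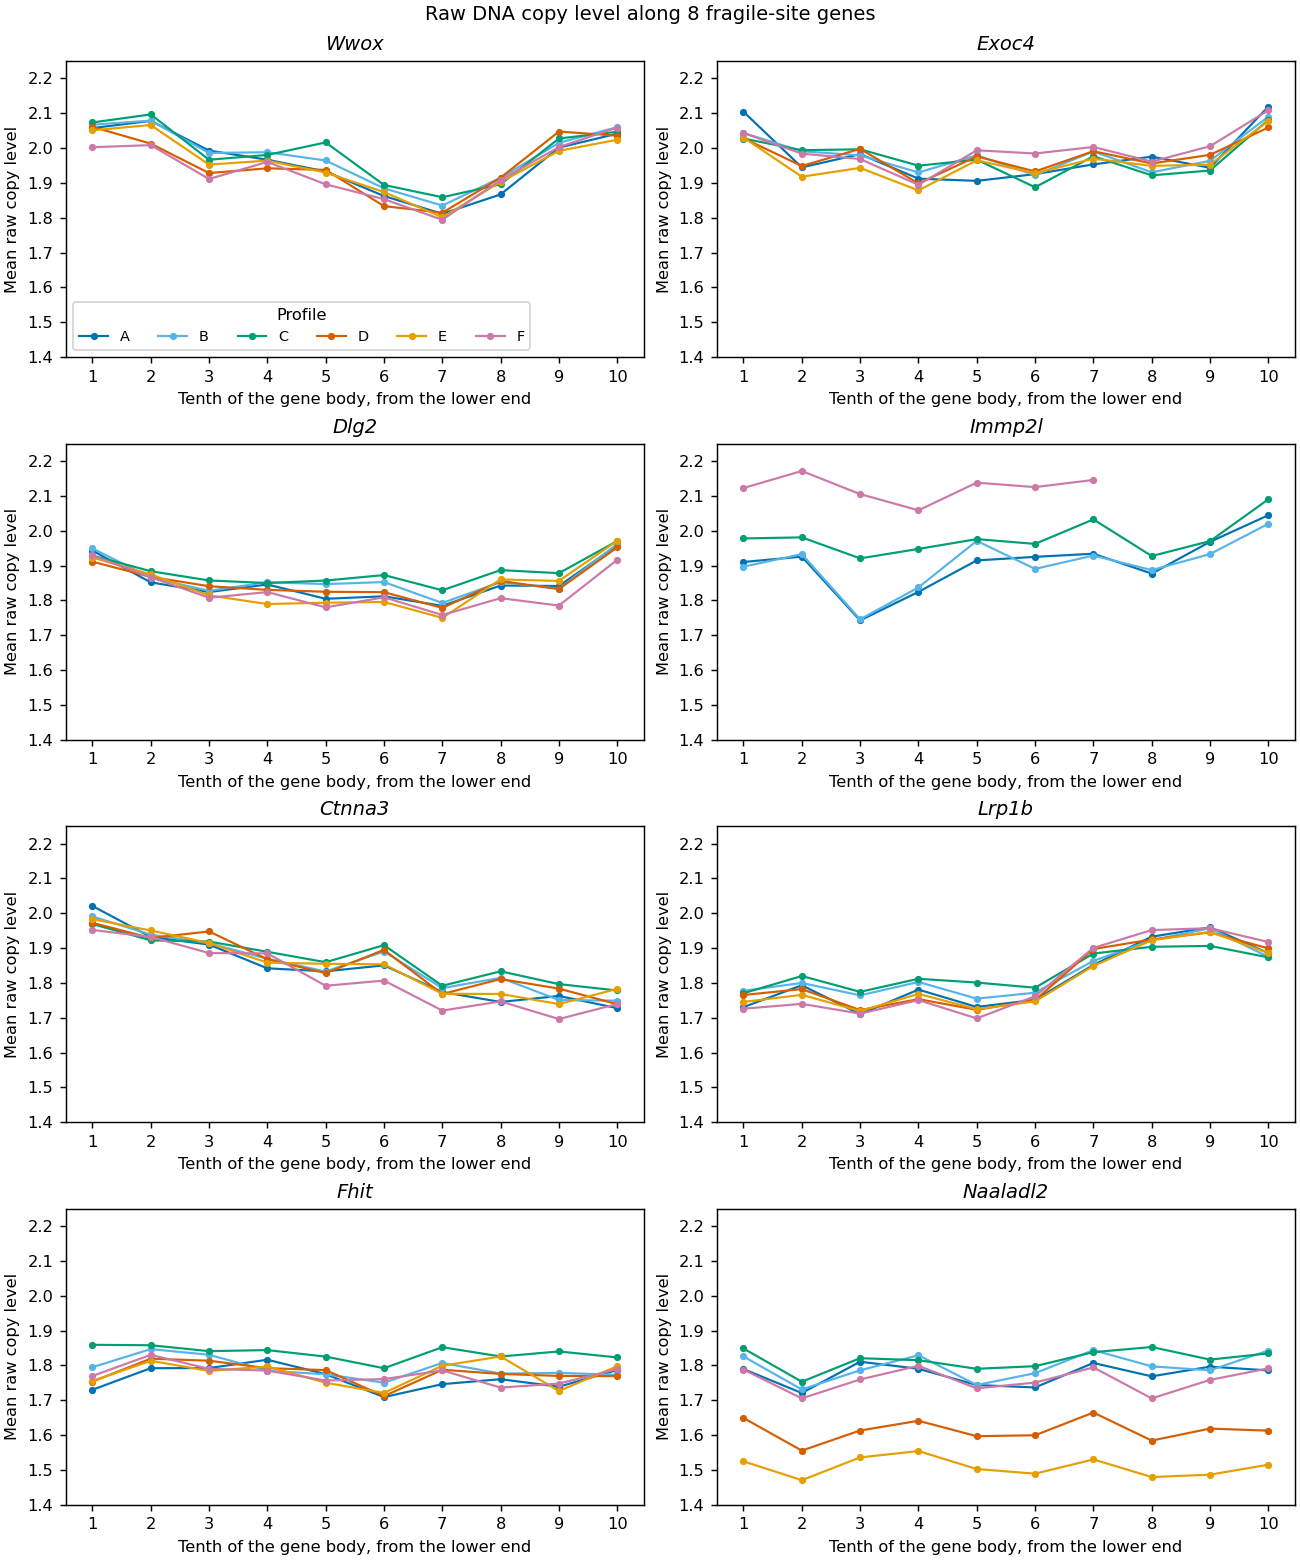
Mean raw DNA copy level (vertical axis) in each of 10 equal parts of the gene body from the lower end (horizontal axis) for the 8 genes, with 1 line per profile. The raw level of Wwox dips to a median of 1.81 in part 7, Naaladl2 is lower in D and E along its whole length, and Immp2l is higher in F.

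Apart from the offsets at Naaladl2 and Immp2l, profiles differed little at these genes. The median root mean square difference between pairs of profiles was 0.12 to 0.16 score units at each of the other 6 genes. After the mean of each profile was removed, it was 0.067 at Fhit, 0.098 at Ctnna3 and 0.12 at Wwox. The size of these differences is small against the swing along the gene in Wwox, Dlg2, Ctnna3 and Lrp1b, and less so in Fhit and Exoc4, which swing little. The Pearson correlation between pairs of profiles was as low as 0.24 at Fhit and 0.52 at Exoc4.

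Losses or gains within a gene in 1 profile, the lesion for which fragile sites are known, were sought in the raw level. Each profile was set against the median of the other profiles over the gene and its flanks, with its own offset removed, in runs of 5 windows in a row. The lowest such ratio at the 8 genes was 0.924, in profile C at Lrp1b, and the highest 1.07. A run past 1.2-fold in either direction was found in 0 of 8 genes, beside 0 of 208 long genes (0%). The measure reads the mean of a culture over 5 windows at least, so a deletion that is shorter, or carried by few cells, was not detectable this way. A loss shared by all profiles would not be seen either. Removing the offset also takes out a gain or loss that spans most of the gene and its flanks. Body raw levels of 1.61 in D and 1.51 in E at Naaladl2 were therefore not tested this way. The same holds for 2.12 in F at Immp2l. Only 97 of 181 windows of Immp2l and its flanks had a value in all of A, B, C and F. The result at Immp2l thus does not cover the whole stretch in every profile.

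**Figure D4:**
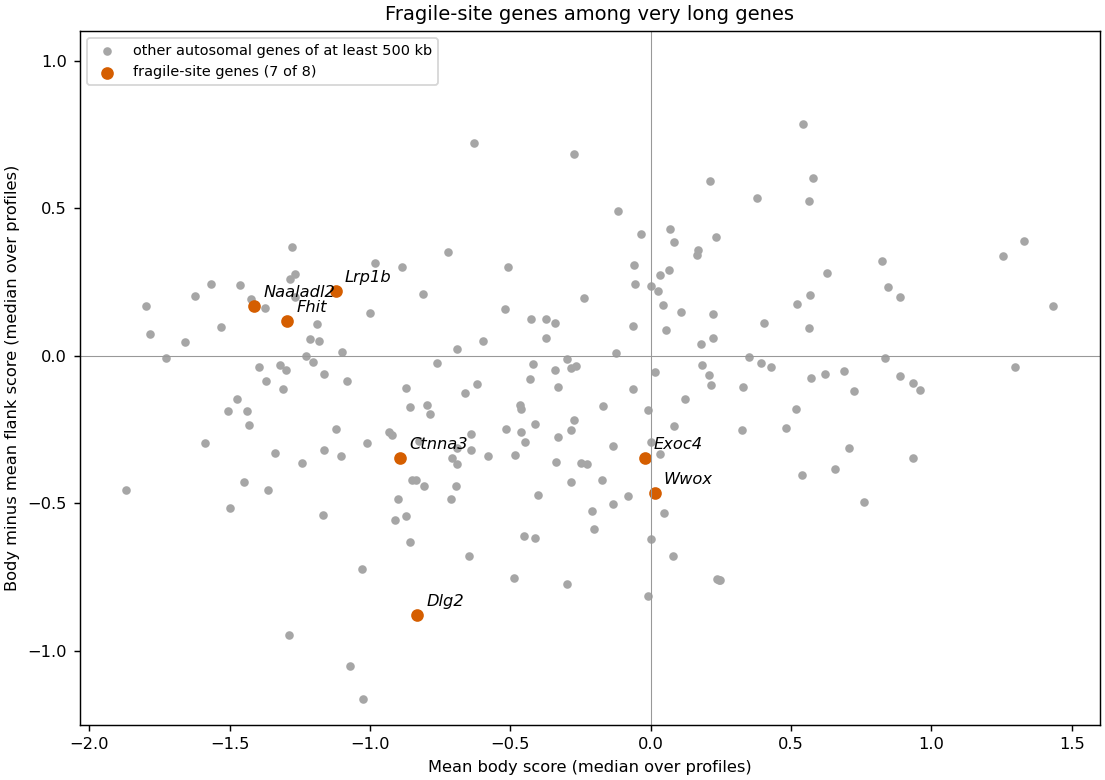
Median body score (horizontal axis) against median body minus mean flank score (vertical axis) for autosomal genes of at least 500 kb, with 7 of the 8 fragile-site genes marked. Dlg2 lies near the lower edge at -0.88, while Lrp1b, Fhit and Naaladl2 combine a late body with a difference from the flanks above 0.

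Compared with long genes at large, the fragile-site genes were longer and their median body was later. Their median length was 1460 kb, against 735 kb for the 215 autosomal genes of at least 500 kb. The median body score was -0.86 (-1.41 to 0.014 over genes), against -0.39 (-1.87 to 1.43). The median body minus flank score was -0.35 over 7 genes, against -0.094 over 204. These figures describe the lists and were not tested.

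Other genes of the same kind came from a list of 15 names, of which 12 were autosomal with values. They include Cntnap2, a neurexin relative, and Dab1, which encodes an adaptor of reelin signalling. A body score below 0 in each profile was found in 8 of 12, a body later than both flanks in 2, Dab1 among them, and a latest part inside the gene in 5. No gene of the 12 had a run past 1.2-fold. The median body score of the 12 was -0.37, close to that of all long genes.

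The earliest of these was Pde4d, a cyclic AMP phosphodiesterase gene, at a median of 0.83 (0.60 to 0.91). Cntnap2, by contrast, had a median body score of -1.07 (-1.12 to -0.94). Very long genes of this list thus covered early and late DNA alike. On the X chromosome, where raw levels are not comparable with autosomes, only the difference from the flanks was read. Dmd, the dystrophin gene, was later than its flanks by a median difference of -0.30 (-0.35 to -0.26), and Il1rapl1 differed from its flanks by -0.054.

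The genes whose course was most like the average of the fragile-site genes were Dpyd, Ntm and Tmem132d. Likeness was the root mean square difference over 20 points, 10 of the body and 5 of 100 kb on each side, from the mean shape of the 7 genes valued in 6 profiles. It was 0.16 for Dpyd, 0.17 for Ntm and 0.21 for Tmem132d among 185 genes compared. The fragile-site genes themselves lay between 0.52 (Dlg2) and 1.23 (Naaladl2) from their own mean. The average shape therefore describes none of the 7 well, and the valleys, slopes and flat courses above are the better account.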

How the data were processed

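Whole-genome sequencing of 6 samples, 3 WT and 3 Recql4 -/- Klhdc3 -/-, was available as 2 tables over mm10 windows, each with 4 position columns and 6 unnamed columns of values. The authors deposited a raw DNA copy level (a signal, depth scaled to about 2 on autosomes) and a smoothed timing score per window. The deposited score is scaled in each profile to unit SD on the autosomes, so overall amplitude is lost and a large copy change in a profile enters its scale. The build mm10 and Picard 2.23.9 are named per the submitters' processing notes, and TIGER, which infers timing from depth, in the series title. How reads were aligned, corrected for GC, filtered by window and smoothed is not given in the sources used here. Depth per library is unknown, which limits the precision that can be stated.

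Genes were placed at RefSeq coordinates (GRCm38.p6, the mm10 assembly), for which all 8 symbols matched. A window belonged to a gene by its midpoint, and a value needed at least 50% of the windows valued in that profile. Bodies were averaged, cut into 10 equal parts, and set against 500-kb flanks. Columns were treated as 6 unassigned profiles, since no label ties a column to a sample, so no groups were compared and no test was run. Counts are set beside the same counts over autosomal protein-coding genes of at least 500 kb. A focal run was 5 windows past 1.2-fold. All 8 genes are named, with the earliest of 15 other listed genes (Pde4d), Dmd and Il1rapl1 on X, 4 of that list chosen after their values were seen (Cntnap2, Dab1, Auts2 and Csmd1), the 3 most alike genes, and genes that overlap a body or flank as neighbours. Neighbours in a flank were chosen from the annotation after their places were seen. The latest and the most variable of the 15 are not reported here.

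The members and lists were chosen with earlier results of these data known. Alternatives covered the value, the summary, the windows, the zero, the flank length, the number of parts and each profile left out in turn. The depth of the minimum and the alternatives for focal runs were added after the data were seen. The computation was tested on simulated data, with Python 3.11.15, numpy 2.4.6, pandas 2.3.3 and matplotlib 3.10.9.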

Additional observations from a re-analysis of the deposited data

How the results depend on the processing

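No paired analysis was possible because neither sample names nor replicate numbers stand on the value columns. With flanks of 1 Mb in place of 500 kb, only 1 gene (Dlg2) was later than both flanks in each profile, and the body minus flank score turned negative at Lrp1b (-0.13) and Fhit (-0.076). Requiring the minimum inside the gene to be at least 0.25 score units deep, an alternative added after the data were seen, left 2 genes (Wwox and Dlg2). The causes were not tested. With each profile left out in turn, 5 to 6 genes had a body score below 0, 3 to 3 lay below both flanks, 4 to 4 had an inner minimum, 5 to 6 a raw level below the median and 0 to 0 a focal run. The sixth gene was Immp2l without profile F, for the score and for the raw level, and Wwox without C for the raw level. Every other count was within 1.5 times its main value. Of 32 alternative median body scores 21 shifted by less than 1 SD over profiles and 11 by more. The SD was each gene's own, and the offsets between profiles made it wide at Naaladl2 and Immp2l. On the raw level, Naaladl2 at -1.04 thus counted as a shift below 1 SD, and Lrp1b at -0.80 as a larger one. The sign changed only at genes whose profiles lay on both sides of 0: Wwox went from 0.014 to -0.028 on the raw level, -0.027 by the median of windows, -0.091 against its own chromosome and -0.015 without B, C or E, and Exoc4 from -0.021 to 0.016 on the raw level. Of 24 alternative body minus flank values 12 shifted by less than 1 SD and 10 by more with the sign kept, among them Wwox at -0.076, Ctnna3 at -0.55 and Naaladl2 at 0.094 with flanks of 1 Mb, and 2 changed sign. With scores read from the raw level, 2 genes (Wwox and Dlg2) lay below both flanks and 6 had an inner minimum, with Fhit and Naaladl2 added. Depth per library is unknown.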

Other observations

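At some other very long genes of the list the profiles differed more than at the 6 fragile-site genes other than Naaladl2 and Immp2l. These were singled out after their values were seen. At Auts2, a gene active in neural development, the body score was -0.53, -0.31 and -0.35 in A, B and C and -1.14, -1.14 and -0.73 in D, E and F. At Csmd1, a gene of a complement-related membrane protein, it was 0.029, 0.093 and -0.075 in A, B and C and -0.16, -0.50 and -0.52 in D, E and F. At both genes A, B and C were the earlier profiles, with no overlap. The body scores of Exoc4 and Lrp1b, given above, split the other way. There D, E and F were the earlier profiles, also with no overlap, but the gaps were small. At Exoc4 the nearest profiles were B at -0.030 and E at -0.013, and at Lrp1b B at -1.14 and D at -1.10. The share of long genes that split in either way was not counted. How usual such a split is therefore remains unknown here. The columns carry no sample names, so whether these sets of profiles match the study's groups is unknown.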
